A study of Mus musculus with 12 samples.

Results

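Voltage-gated sodium and calcium channel genes were followed in spinal cord RNA from 12 adult mice. The members were all genes of the deposited FPKM table (fragment counts scaled by transcript length and library size) whose symbols fit the names of sodium channel pore and beta subunits (Scn with a number and a or b) or of calcium channel pore, alpha2delta, beta and gamma subunits (Cacna1a to Cacna1i, Cacna2d, Cacnb and Cacng). Cacna1s, the pore of the skeletal muscle channel, was left out by the same rule. They came to 39 Ensembl identifiers with 38 symbols, out of 37991 genes in the count table, because Scn8a stands there under 2 identifiers. Scn2a is listed there under its older name Scn2a1 and so falls outside the pattern; its values are given as those of a gene that is no member.

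All mice were adults of more than 8 weeks on a C57bl/6J background and carried the alleles Glast-CreERT2, R26R-YFP and Rasless, so no group was free of them. Cre recombinase is driven in this line by the Glast promoter, which was used to reach type A pericytes. The recombinase, and not the promoter, becomes active with tamoxifen. SCI Tam mice (452, 513, 549 and 564) received 2 mg tamoxifen a day for 5 days and, after 7 clearing days, a dorsal hemisection at high thoracic level; the lesion was taken 14 days later. SCI Veh mice (402, 428, 429 and 457) had the solvent on the same schedule and the same injury. Uninjured mice (376, 377, 385 and 467) are labelled as given vehicle and gave a cord segment without injury. The series describes the SCI Veh lesions as densely and the SCI Tam lesions as less densely scarred by pericyte-derived cells. Uninjured animals with tamoxifen were not analysed here, so an action of the drug without injury cannot be told apart from its action in the lesion.

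Voltage-gated sodium channels carry the rising phase of the action potential and cluster at axon initial segments and nodes of Ranvier. Each consists of 1 large pore subunit and smaller beta subunits that set gating, trafficking and cell adhesion. Voltage-gated calcium channels turn depolarisation into calcium entry, for transmitter release at terminals and for excitability and gene regulation in the soma and dendrites. Their pore subunit travels with an extracellular alpha2delta and a cytoplasmic beta subunit, while most gamma subunits serve as auxiliary proteins of AMPA-type glutamate receptors. In the spinal cord these genes are mainly those of neurons, with some expression in glia, and several family members belong to dorsal root ganglia, skeletal muscle, heart or retina.

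The libraries held 7967970 to 12581324 counts. Neuron transcripts were clearly present in every library, and none of the 18 neuron markers found in the table was at 0 in any of them. Libraries also differed in ways that go partly with the groups. Xist and Y-linked transcripts marked all 4 SCI Tam mice, 1 SCI Veh mouse and 3 Uninjured mice as female. Sample names run from 106 to 108 for SCI Tam libraries 513, 549 and 564, and from 1 to 20 for the other 9 libraries, SCI Tam library 452 included. The mean level of skeletal muscle markers, as log2 of CPM (counts scaled to library size) with 0.1 added, was above 2 in SCI Veh libraries 402, 429 and 457 and in Uninjured libraries 377 and 385. SCI Veh library 429 also held transcripts of sensory ganglion neurons, described with the ganglion channel genes. Levels are given as CPM after TMM normalisation (library scaling by trimmed means), always in the order of the mouse numbers above. Levels of different genes are compared by the authors' FPKM values alone.

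By FPKM, 23 of the 39 members averaged more than 10 in Uninjured cord and 8 averaged less than 1. Of the members described here, Scn4b had the highest level, 85.7 ± 1.95 FPKM in Uninjured cord (SD, n = 4), above all values of Cacng7. Cacng7 (70.9 FPKM), Scn1a (62.2 FPKM) and Scn8a (39.5 FPKM) followed; Cacng7 and Scn1a overlapped in their 4 values, whereas Scn1a and Scn8a, and Scn8a and the gene after it, Cacna2d2 (33.5 FPKM), did not. From Cacna2d2 down to Cacnb1, each gene overlapped the next in the order, and these are not ranked apart. The highest pore subunits of calcium channels were Cacna1a at 20.5 ± 1.68 FPKM and Cacna1g at 19.2 ± 3.41 FPKM, 2 genes whose values overlapped. In both lesion groups the values of Scn4b and Cacng7 overlapped: Scn4b was at 60.6 ± 4.88 FPKM in SCI Tam and 50.5 ± 5.53 FPKM in SCI Veh lesions, and Cacng7 at 61.6 ± 4.79 and 53.4 ± 7.28 FPKM.

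**Figure D1:**
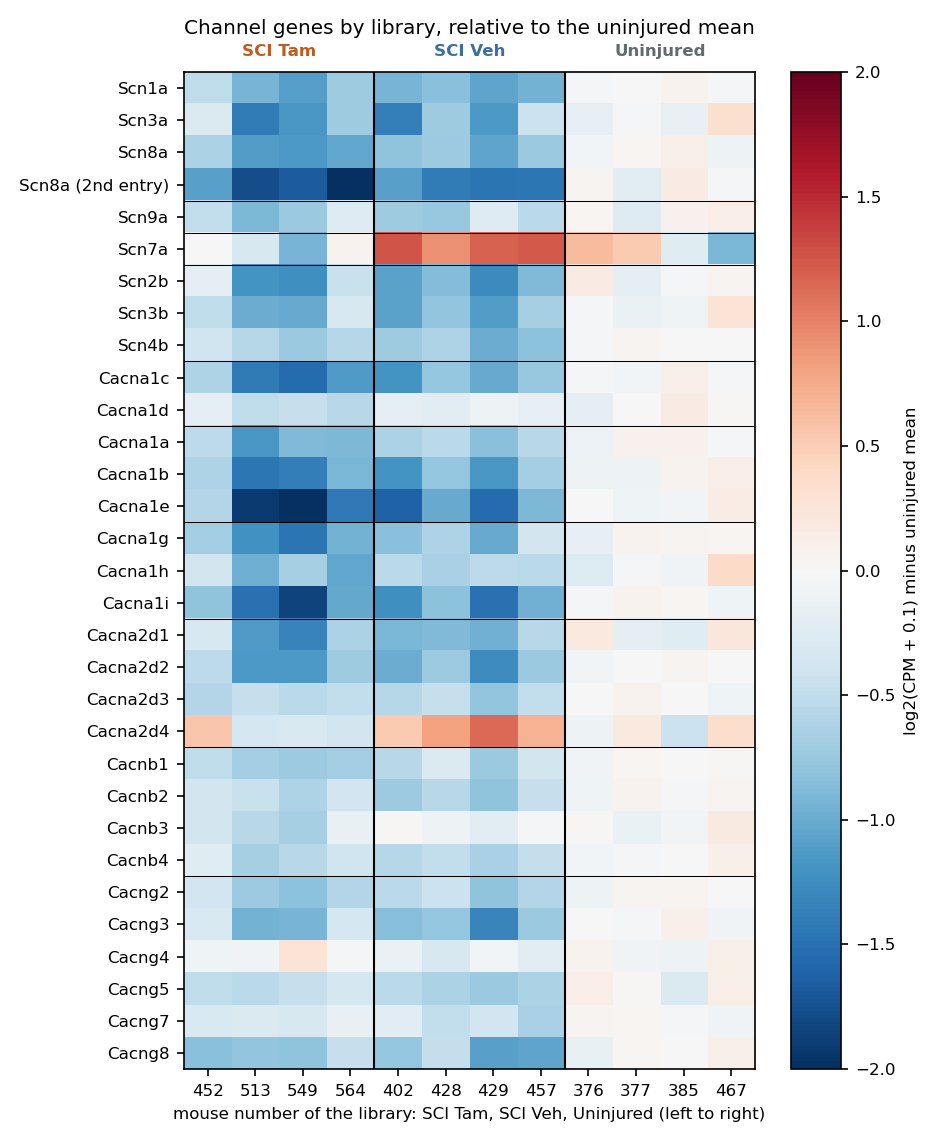
Each row is 1 channel gene and each column 1 library, in the order SCI Tam, SCI Veh and Uninjured; colour gives log2(CPM + 0.1) minus the mean of the 4 Uninjured libraries. Lines separate the roles of the genes. Most rows are blue in all 8 lesion libraries, while Scn7a and Cacna2d4 are red in the 4 SCI Veh libraries, and SCI Tam library 452 is paler than 513 and 549 in most rows. The muscle genes Scn4a and Cacng1 and the 4 genes that were not tested are left out, as are tested members not described in the text.

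At 14 days after hemisection, most channel genes stood at a lower share of the RNA in vehicle-treated lesions than in intact cord, and 2 stood at a higher one. Of the 39 members, 35 had enough counts for the test and 4 (Scn10a, Scn11a, Cacna1f and Cacng6) did not. In SCI Veh against Uninjured, 27 of the 35 were lower and 2 higher (edgeR quasi-likelihood test, Benjamini-Hochberg adjusted p under 0.05 over 16473 genes), against 24.1% of all tested genes lower and 26.7% higher, 50.8% in all. Those without a call included Scn4a, Cacna1d, Cacnb3, Cacng1 and Cacng4. For 27 members all 4 SCI Veh libraries lay below all 4 Uninjured libraries, against 24.7% of all genes, and for 2 they all lay above, against 26.3%. The median log2 fold change of the 35 was -0.65, beside 0.02 for all genes tested. The falls that passed ran from 0.42 on the log2 scale for Cacng7, a fall of 25.5%, to 1.36 for the second identifier of Scn8a, a fall of 61.2%. Directions hold for TMM scaling, and many of them changed sign when libraries were scaled to neuron markers, as described further on. In bulk tissue, fewer neurons, more RNA from other cells and less of a transcript in each neuron cannot be told apart. When the libraries high in muscle transcripts were left out, 1 SCI Veh library remained against 2 Uninjured ones, and none of the 27 passed; the 26 described here still had negative log2 fold changes, with a median of -0.77. In that small fit 296 genes of all those tested were called, against 8368 with every library.

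Markers of neurons moved the same way. Of 18 neuron markers, 17 fell and 0 rose in SCI Veh against Uninjured, with a median log2 fold change of -0.73. The shares of all tested genes were 24.1% lower and 26.7% higher. Their summed level was 6778 to 8117 CPM in SCI Tam libraries, 6036 to 7416 CPM in SCI Veh libraries and 9699 to 10240 CPM in Uninjured libraries. Markers of fibroblasts and mural cells rose for 10 of 10 genes with a median of 3.11, and markers of macrophages and microglia for 10 of 10 with a median of 2.30. The part of these shifts in the fall of the channel genes was not tested beyond the scaling to neuron markers given further on.

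The sodium channel pore subunits of central neurons all fell. Scn1a, a pore subunit best known from fast-spiking inhibitory neurons, had 347, 261, 230 and 303 CPM in SCI Tam lesions, against 259, 279, 238 and 258 CPM in SCI Veh lesions and 480.5, 499.8, 519 and 485 CPM in Uninjured cord. All 4 SCI Veh values lay far below the Uninjured range, and their own spread was small. The log2 fold change of Scn1a in SCI Veh against Uninjured was -0.94 (SE 0.10, edgeR adjusted p = 2.01e-05), so that 52% of the Uninjured level remained. Scn8a encodes the main pore subunit of mature nodes of Ranvier and axon initial segments. Its main identifier had 325, 233, 226 and 246 CPM in SCI Tam lesions, against 287, 305, 242 and 302 CPM in SCI Veh lesions and 485, 519, 546 and 468 CPM in Uninjured cord. Here too the lesion values and the Uninjured values did not overlap, and Scn8a was lower by 0.83 on the log2 scale (SE 0.11, edgeR adjusted p = 7.65e-05). The second identifier of Scn8a, which the GRCm38 annotation does not hold, had 6.47, 4.01, 4.34 and 3.31 CPM in SCI Tam lesions, against 6.52, 5.18, 4.96 and 5.02 CPM in SCI Veh lesions and 14.5, 12, 15.6 and 13.7 CPM in Uninjured cord. It showed the steepest called fall among the members, -1.36 on the log2 scale (SE 0.18). How reads were divided between the 2 identifiers is not given in the sources used here, so they are not separate evidence. Scn3a, a pore subunit prominent in the developing nervous system, averaged 19.2 ± 6.68 CPM in SCI Tam lesions, 18.7 ± 5.53 CPM in SCI Veh lesions and 34.5 ± 5.6 CPM in Uninjured cord (SD, n = 4 each). Scn3a fell with a log2 fold change of -0.88 in SCI Veh against Uninjured (edgeR adjusted p = 0.00826). Scn2a1, the remaining pore subunit of central neurons and no member by the rule, averaged 58.2 ± 19.4, 54.7 ± 7.91 and 115 ± 11.3 CPM in the same 3 groups and fell by 1.07 on the log2 scale in SCI Veh against Uninjured (edgeR adjusted p = 0.000433).

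The beta subunits, single-span proteins that modulate the pore and act as adhesion molecules, fell for Scn2b, Scn3b and Scn4b. Scn4b, which has been linked to resurgent sodium current, gave the smallest adjusted p of all members, and its values were 377, 335, 296 and 336 CPM in SCI Tam lesions, against 304, 323, 251 and 282 CPM in SCI Veh lesions and 488, 514, 494 and 492 CPM in Uninjured cord. Its Uninjured libraries differed little among themselves, and each lesion library lay below them. Scn4b changed by -0.78 on the log2 scale in SCI Veh against Uninjured (SE 0.08, edgeR adjusted p = 1.73e-05). Scn2b averaged 83.3 ± 30.4 CPM in SCI Tam, 66.3 ± 8.37 CPM in SCI Veh and 135 ± 14.2 CPM in Uninjured libraries. All 4 SCI Veh values of Scn2b lay below the Uninjured range, with a log2 fold change of -1.02 (SE 0.20, edgeR adjusted p = 0.00114), while SCI Tam library 452 overlapped that range. Scn3b averaged 25.4 ± 6.2, 21.7 ± 3.33 and 40.8 ± 5.46 CPM in SCI Tam, SCI Veh and Uninjured libraries and fell by 0.91 on the log2 scale in SCI Veh against Uninjured.

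**Figure D2:**
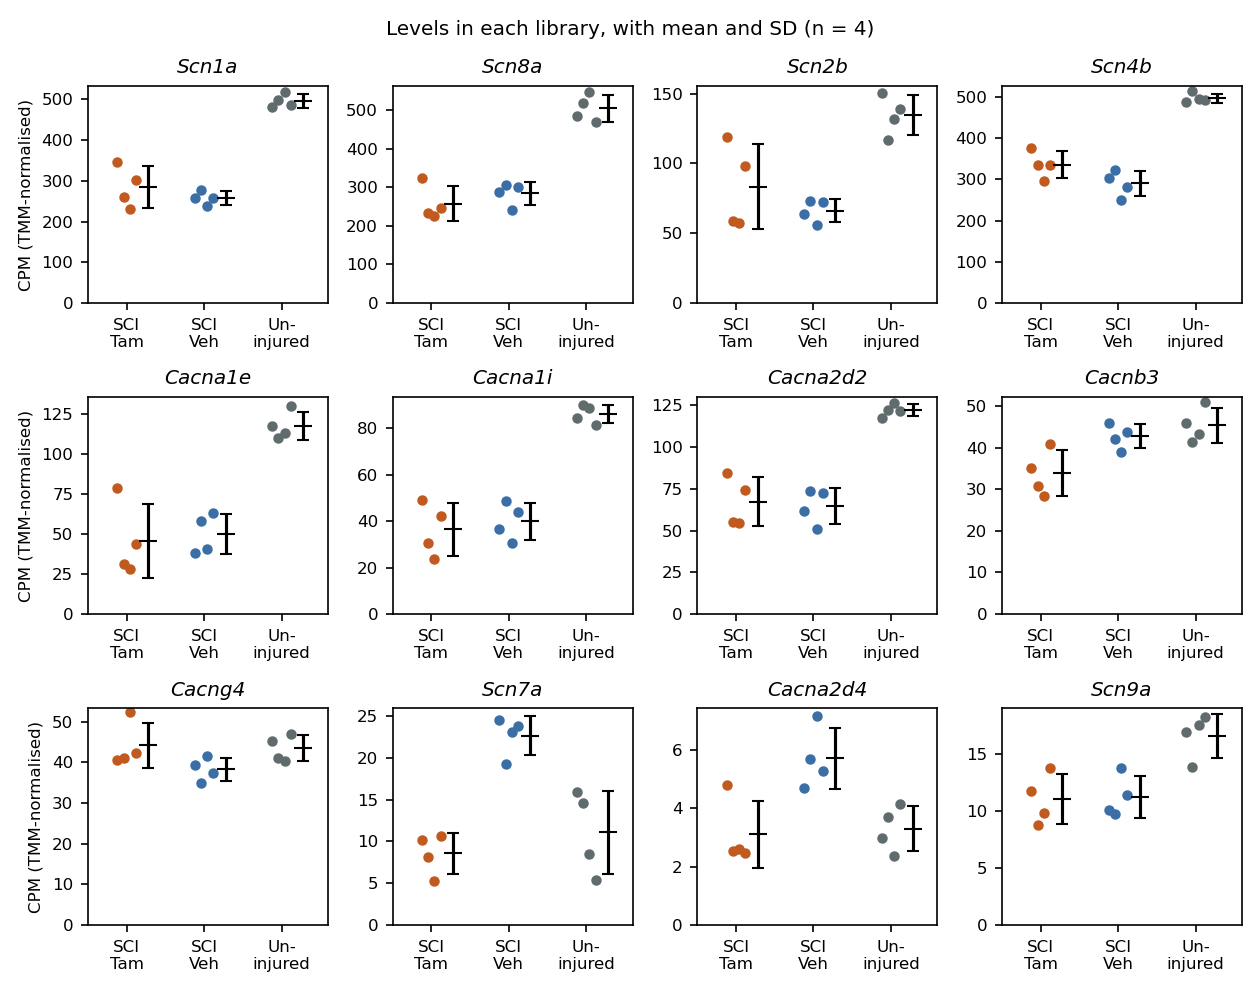
Points are the CPM values of single libraries in SCI Tam, SCI Veh and Uninjured mice for 12 channel genes, on axes that start at 0; horizontal lines are means and vertical lines SDs of 4 libraries. In 8 of the panels, Scn1a, Scn8a, Scn2b, Scn4b, Cacna1e, Cacna1i, Cacna2d2 and Scn9a, the SCI Veh points lie below all Uninjured points. Scn7a and Cacna2d4 show the opposite order, with the SCI Veh points above all Uninjured points. For Scn7a they also lie above all SCI Tam points, while for Cacna2d4 the point of SCI Tam library 452 lies among them.

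Scn7a went the other way. It encodes a sodium channel relative that is not opened by voltage; in rodents it senses the extracellular sodium level in glia of sensory circumventricular organs and is found in non-myelinating Schwann cells. Scn7a had 10.2, 8.11, 5.29 and 10.7 CPM in SCI Tam lesions, against 24.5, 19.3, 23.1 and 23.8 CPM in SCI Veh lesions and 15.8, 14.6, 8.52 and 5.36 CPM in Uninjured cord. Every SCI Veh value was above every SCI Tam and every Uninjured value, while the SCI Tam and Uninjured ranges overlapped. The log2 fold change was 1.04 in SCI Veh against Uninjured (SE 0.29, edgeR adjusted p = 0.00867) and -1.41 in SCI Tam against SCI Veh (SE 0.29, adjusted p = 0.00911). In SCI Tam against Uninjured it was -0.37 (adjusted p = 0.326) and did not pass. The 2 called changes share the SCI Veh libraries and are not independent of each other. Both calls were lost without the libraries high in muscle transcripts (log2 fold change 0.85, adjusted p = 0.449 in SCI Veh against Uninjured; -1.17, adjusted p = 0.645 in SCI Tam against SCI Veh), a fit that leaves SCI Veh library 428 alone. The call in SCI Tam against SCI Veh was also lost with a term for the sample name series (log2 fold change -1.15, adjusted p = 0.333). Leaving out any single library ended neither call. Within the Uninjured group, libraries 376 and 377 stood well above 467.

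Markers of several non-neuronal cells stood with Scn7a. The summed level of 10 fibroblast and mural cell markers was 758 to 1261 CPM in SCI Tam libraries, 2995 to 8026 CPM in SCI Veh libraries and 261 to 649 CPM in Uninjured libraries. Of these markers, 10 rose in SCI Veh against Uninjured and 7 fell in SCI Tam against SCI Veh, in neither case with a call in the opposite direction. The sum of the Schwann cell markers was 564 to 705 CPM in SCI Tam libraries, 738 to 969 CPM in SCI Veh libraries and 373 to 811 CPM in Uninjured libraries. Of 9 Schwann cell markers tested, 5 rose in SCI Veh against Uninjured and 2 fell in SCI Tam against SCI Veh. Beside both lists, 26.7% of all tested genes rose and 8.33% fell in these 2 comparisons. Macrophage and microglia markers summed to 837 to 1718 CPM in SCI Tam, 1129 to 2266 CPM in SCI Veh and 235 to 291 CPM in Uninjured libraries. Of these 10 markers, 10 rose in SCI Veh against Uninjured and 1 fell in SCI Tam against SCI Veh. The astrocyte markers summed to 13010 to 16390 CPM in SCI Tam, 11440 to 14290 CPM in SCI Veh and 8537 to 9243 CPM in Uninjured libraries, so they did not stand lower in SCI Tam lesions. The part of these cell types in the change of Scn7a was not tested.

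Scn7a lies in a cluster of sodium channel genes. In the gene order of the GRCm38 annotation, chromosome 2 carries Scn3a next to Scn2a and, after 3 other protein-coding genes, Scn1a, Scn9a and Scn7a with no protein-coding gene between them. Scn1a and Scn9a fell in SCI Veh against Uninjured where their neighbour Scn7a rose. The RefSeq promoter windows of these 3 genes on GRCm38.p6, from 250 bases before to 50 after the start, are shown because neighbours moved in opposite directions. All are read 5′ to 3′ on the minus strand, and capitals mark CG pairs and the GC box GGGCGG or its complement CCGCCC.
Scn7a, chr2:66784861-66785160, minus strand: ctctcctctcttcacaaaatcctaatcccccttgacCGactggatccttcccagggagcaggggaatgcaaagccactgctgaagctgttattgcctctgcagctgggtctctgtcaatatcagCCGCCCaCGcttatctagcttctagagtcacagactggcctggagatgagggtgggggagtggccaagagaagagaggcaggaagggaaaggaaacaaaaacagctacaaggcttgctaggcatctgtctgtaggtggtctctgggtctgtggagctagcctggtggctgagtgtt
Scn9a, chr2:66634913-66635212, minus strand: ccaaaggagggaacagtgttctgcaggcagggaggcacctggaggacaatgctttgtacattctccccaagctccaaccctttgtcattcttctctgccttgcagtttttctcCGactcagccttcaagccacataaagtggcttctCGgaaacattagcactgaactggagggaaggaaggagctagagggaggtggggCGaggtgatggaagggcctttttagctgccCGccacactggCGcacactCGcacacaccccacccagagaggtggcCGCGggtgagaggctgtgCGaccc
Scn1a, chr2:66440788-66441087, minus strand: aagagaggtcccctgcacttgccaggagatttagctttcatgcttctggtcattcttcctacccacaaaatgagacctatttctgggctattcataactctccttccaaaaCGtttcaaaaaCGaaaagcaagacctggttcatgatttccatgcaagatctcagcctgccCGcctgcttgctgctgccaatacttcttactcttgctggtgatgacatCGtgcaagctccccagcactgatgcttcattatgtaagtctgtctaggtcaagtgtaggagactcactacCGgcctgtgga
The Scn7a window holds 3 CG pairs and 1 GC box, the Scn9a window 9 CG pairs and no GC box, and the Scn1a window 5 CG pairs and no GC box. RefSeq entries were found for 28 of the 38 symbols, 38 windows in all, and their median was 11 CG pairs, beside 7 in all 32851 windows. A GC box on either strand was found in 39.5% of the member windows and in 35.7% of all windows, and the letters TATAAA or TTTATA in 2.63% and 13.6%. Of the parts of the site bound by the neuronal repressor REST, CAGCACC or its complement was found in 0 member windows and in 7.14% of all windows, and GGACAGC or its complement in 5.26% and 6.56%. Such matches describe letters in these windows only.

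The pore subunits of the calcium channels that feed transmitter release and dendritic excitability fell in vehicle-treated lesions. Cacna1a, the P/Q-type pore subunit, had 104, 66.6, 80.3 and 79.5 CPM in SCI Tam lesions, against 95.8, 102, 83.8 and 101 CPM in SCI Veh lesions and 137, 157, 157 and 145 CPM in Uninjured cord. Its SCI Veh values did not reach the Uninjured range, and the log2 fold change was -0.64 (SE 0.11, edgeR adjusted p = 0.000442). Cacna1b, the N-type pore subunit of presynaptic terminals, averaged 48.8 ± 13.8 CPM in SCI Tam, 52.8 ± 9.63 CPM in SCI Veh and 101 ± 8.15 CPM in Uninjured libraries. It changed by -0.94 on the log2 scale in SCI Veh against Uninjured (edgeR adjusted p = 0.00064). Cacna1e, the R-type pore subunit, averaged 45.5 ± 23.1, 50.1 ± 12.7 and 118 ± 8.9 CPM in the same order, and its fall of 1.23 (SE 0.27) was the largest of any calcium channel gene called in this comparison. Within SCI Tam lesions Cacna1e ran from 28.4 CPM in library 549 to 78.7 CPM in library 452, a wider spread than in the other groups.

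T-type channels open near the resting potential and support bursts. Cacna1i had 49.1, 30.6, 23.8 and 42.3 CPM in SCI Tam lesions, against 36.8, 48.6, 30.5 and 44 CPM in SCI Veh lesions and 84.4, 89.9, 88.8 and 81.2 CPM in Uninjured cord. The lesion groups overlapped each other and stayed below the Uninjured range, and the log2 fold change in SCI Veh against Uninjured was -1.11 (SE 0.19, edgeR adjusted p = 0.000408). Cacna1g averaged 51.4 ± 11.7 CPM in SCI Tam, 66.1 ± 12.9 CPM in SCI Veh and 107 ± 7.79 CPM in Uninjured libraries. Cacna1h averaged 24.9 ± 5.56, 28 ± 1.13 and 42 ± 8.32 CPM in the same order. Both fell in SCI Veh against Uninjured, by 0.69 and 0.59 on the log2 scale (edgeR adjusted p = 0.00243 and 0.00633), and both calls were lost when limma was run on log2 FPKM.

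Among L-type channels, whose calcium current couples activity to gene expression, the 2 tested pore subunits differed in their calls. Cacna1c had 36.3, 20.8, 19 and 25.4 CPM in SCI Tam lesions, against 24.4, 32.5, 27.6 and 32.8 CPM in SCI Veh lesions and 54.9, 53.6, 60.1 and 54.2 CPM in Uninjured cord. No SCI Veh value came near the Uninjured range, and Cacna1c fell by 0.93 on the log2 scale (SE 0.17, edgeR adjusted p = 0.000542). Cacna1d averaged 25.8 ± 3.00 CPM in SCI Tam, 30.8 ± 1.2 CPM in SCI Veh and 34.8 ± 3.4 CPM in Uninjured libraries, and its log2 fold change of -0.18 in SCI Veh against Uninjured did not pass (adjusted p = 0.122). The SCI Veh and Uninjured values of Cacna1d overlapped, and the difference between the 2 genes was not tested. Cacna1f, the L-type pore subunit of photoreceptors, had 0 to 6 counts in each library and was not tested.

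The alpha2delta subunits bring pore subunits to the surface and to synapses, and the products of Cacna2d1 and Cacna2d2 bind gabapentin. Of the 4 genes, 3 fell in SCI Veh against Uninjured. Cacna2d2 had 84.6, 55.2, 54.7 and 74.5 CPM in SCI Tam lesions, against 61.4, 73.8, 51.1 and 72.5 CPM in SCI Veh lesions and 117, 122, 126 and 122 CPM in Uninjured cord. The Uninjured values were tight and stood above each lesion value, with a log2 fold change of -0.91 (SE 0.14, edgeR adjusted p = 0.000199). Cacna2d3 had 63.5, 69.5, 66 and 67.6 CPM in SCI Tam lesions, against 64.3, 69.6, 55.4 and 68.1 CPM in SCI Veh lesions and 95.6, 101, 96.1 and 89.8 CPM in Uninjured cord. It lost less, 0.57 on the log2 scale (SE 0.07, edgeR adjusted p = 3.94e-05), and its lesion libraries again lay below the Uninjured ones. Cacna2d1 averaged 61.8 ± 19.8 CPM in SCI Tam, 61.4 ± 8.31 CPM in SCI Veh and 109 ± 18.5 CPM in Uninjured libraries, and fell by 0.83 (edgeR adjusted p = 0.00335).

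Cacna2d4, the alpha2delta subunit known from photoreceptor synapses, was the other member that rose. It had 4.79, 2.52, 2.6 and 2.48 CPM in SCI Tam lesions, against 4.7, 5.68, 7.16 and 5.25 CPM in SCI Veh lesions and 2.98, 3.69, 2.37 and 4.13 CPM in Uninjured cord. All SCI Veh values lay above the Uninjured values, SCI Tam library 452 lay among the SCI Veh values, and the other 3 SCI Tam libraries lay at the lower end of the Uninjured range. The log2 fold change was 0.79 in SCI Veh against Uninjured (SE 0.24, edgeR adjusted p = 0.0161), a level of 0.794 FPKM in SCI Veh lesions against 0.433 FPKM in Uninjured cord. The call was lost without Uninjured library 385 (adjusted p = 0.0559) or without SCI Veh library 429 (adjusted p = 0.071). In the GRCm38 gene order Cacna2d4 and Cacna1c are separated by 1 protein-coding gene, Dcp1b, on chromosome 6, and Cacna1c fell in the same comparison.

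The cytoplasmic beta subunits chaperone the calcium channel pore and shape its inactivation. Cacnb4 had 120, 89.4, 96.2 and 107 CPM in SCI Tam lesions, against 95.4, 101, 90.2 and 101 CPM in SCI Veh lesions and 136, 137, 141 and 151 CPM in Uninjured cord. Cacnb2 had 37.4, 35.3, 31.4 and 36.9 CPM in SCI Tam lesions, against 29, 32.7, 27.5 and 35.1 CPM in SCI Veh lesions and 45.5, 50.4, 46.9 and 50.2 CPM in Uninjured cord. For both genes the 4 SCI Veh values lay below the Uninjured range, with log2 fold changes of -0.55 (SE 0.08) and -0.63 (SE 0.09). The call of Cacnb4 was lost with limma on log2 FPKM. Cacnb1 averaged 38.1 ± 2.69 CPM in SCI Tam, 43 ± 5.94 CPM in SCI Veh and 59.9 ± 1.78 CPM in Uninjured libraries and fell by 0.48. Cacnb3 did not pass in this comparison. It averaged 33.8 ± 5.52 CPM in SCI Tam, 42.7 ± 2.88 CPM in SCI Veh and 45.3 ± 4.22 CPM in Uninjured libraries, and its log2 fold change of -0.09 in SCI Veh against Uninjured (SE 0.11, edgeR adjusted p = 0.536) was within the spread of the libraries. Of the 4 beta subunit genes, 3 fell and 1 had no call.

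Of the 6 gamma subunits that accompany AMPA receptors, 5 fell in SCI Veh against Uninjured and Cacng4 had no call. Cacng2, the stargazin gene, had 116, 91.3, 85.7 and 101 CPM in SCI Tam lesions, against 104, 112, 86.7 and 101 CPM in SCI Veh lesions and 142, 157, 157 and 150.5 CPM in Uninjured cord. Cacng3 had 17.1, 10.9, 11.1 and 16.5 CPM in SCI Tam lesions, against 11.7, 12.3, 8.45 and 12.5 CPM in SCI Veh lesions and 21.1, 20.7, 22.7 and 20.1 CPM in Uninjured cord. For both, the SCI Veh and Uninjured values did not overlap, and the log2 fold changes were -0.59 (SE 0.10) and -0.91 (SE 0.16). Cacng5 had 15.8, 15.5, 16.4 and 17.7 CPM in SCI Tam lesions, against 15.5, 14.6, 13.5 and 14.5 CPM in SCI Veh lesions and 24.9, 23, 18.5 and 24.6 CPM in Uninjured cord. Cacng8 had 5.51, 5.68, 5.64 and 7.16 CPM in SCI Tam lesions, against 5.77, 7.04, 4.59 and 4.7 CPM in SCI Veh lesions and 8.95, 10.1, 9.84 and 10.7 CPM in Uninjured cord. Both lay below the Uninjured range in every SCI Veh library, by 0.65 and 0.85 on the log2 scale. Cacng7, the gamma subunit with the highest level, averaged 152 ± 8.44 CPM in SCI Tam, 136 ± 17.4 CPM in SCI Veh and 183 ± 7.27 CPM in Uninjured libraries. Cacng4 averaged 44.1 ± 5.6, 38.3 ± 2.89 and 43.4 ± 3.18 CPM in the same order, with a log2 fold change of -0.18 (edgeR adjusted p = 0.125) and overlapping values.

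**Figure D3:**
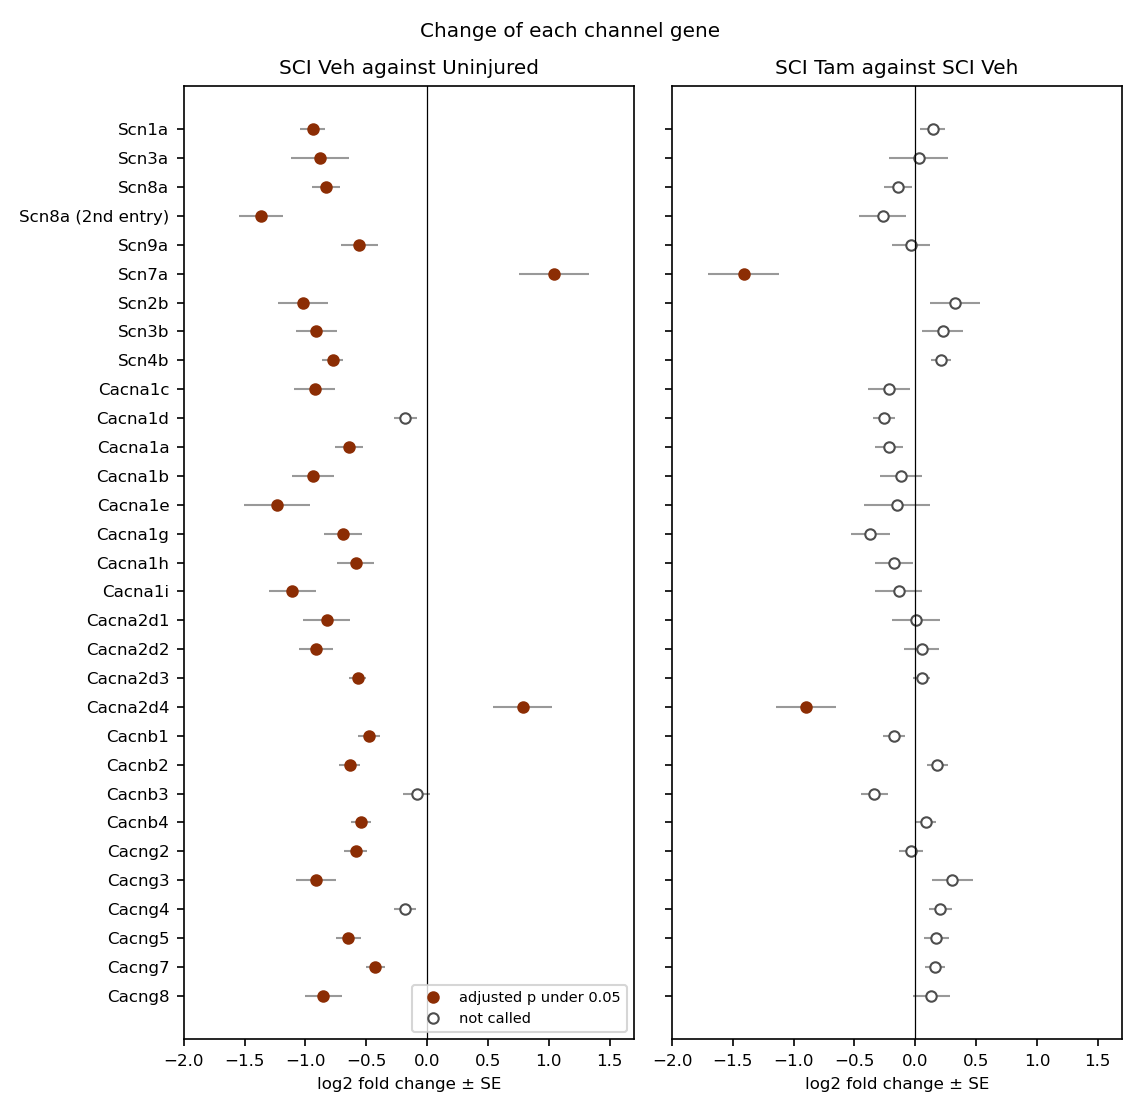
Points are log2 fold changes of each channel gene and bars their SEs, for SCI Veh against Uninjured on the left and SCI Tam against SCI Veh on the right; filled points have an edgeR adjusted p under 0.05. On the left the filled points lie below 0 except for Scn7a and Cacna2d4. On the right these 2 are the only filled points shown. Scn4a and Cacng1, whose changes and errors are far larger, are left out.

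Channel genes of ganglia and muscle were high in a few libraries only. Scn10a, the pore of the tetrodotoxin-resistant channel of nociceptors, had 93 counts (8.54 CPM) in SCI Veh library 429 and at most 6 counts in any other library. Scn11a, also a nociceptor channel, had 47 counts (4.32 CPM) in library 429 and at most 2 elsewhere. Neither gene passed the filter on low counts, and neither was tested. Among the sensory neuron markers, Mrgprd stood at 1.29 CPM in library 429 and at most at 0.247 CPM in any other, and Trpv1 at 0.918 CPM in library 429 and at most at 0.321 CPM in any other; these 2 were picked after their values were seen. Library 429 held the highest value of 6 of the 10 markers found and not of the other 4: P2rx3 was at 2.48 CPM in 429 against 3.21 CPM in SCI Tam library 564, Calca at 112.8 against 116.6 CPM in 549, Prph at 97.5 against 132.1 CPM in 513 and in 549, and Pou4f1, at 4.96 CPM, was among the lowest. The mean log2 level of the 10 markers found was 2.68 in library 429, against 0.69 to 1.32 in the other 11. Their summed level was 160 to 261 CPM in SCI Tam, 169 to 244 CPM in SCI Veh and 121 to 165 CPM in Uninjured libraries. Scn9a, expressed in sensory and sympathetic neurons and also in central ones, averaged 11 ± 2.21 CPM in SCI Tam, 11.2 ± 1.83 CPM in SCI Veh and 16.6 ± 1.93 CPM in Uninjured libraries. Library 429 held the highest SCI Veh value of Scn9a as well, 13.8 CPM, just under the lowest Uninjured value. Scn9a fell by 0.56 on the log2 scale in SCI Veh against Uninjured (edgeR adjusted p = 0.00938).

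Scn4a, the pore of the skeletal muscle sodium channel, averaged 0.249 ± 0.202 CPM in SCI Tam, 1.34 ± 0.918 CPM in SCI Veh and 2.26 ± 3.26 CPM in Uninjured libraries. The highest value of Scn4a was 7.03 CPM in Uninjured library 377. Cacng1, the gamma subunit of the skeletal muscle calcium channel, had 0.24, 0.0932, 0 and 0.276 CPM in SCI Tam lesions, against 2.88, 0, 2.3 and 5.02 CPM in SCI Veh lesions and 0.115, 1.97, 0.264 and 0 CPM in Uninjured cord. Its high values lay in SCI Veh libraries 402, 429 and 457 and Uninjured library 377, which are among the 5 libraries high in muscle markers. The sum of the muscle markers was 5.81 to 21.3 CPM in SCI Tam libraries, 13 to 554 CPM in SCI Veh libraries and 7.35 to 765 CPM in Uninjured libraries. Cacna1s, no member by the rule, averaged 0.589 ± 0.364 CPM in SCI Tam, 5.59 ± 5.14 CPM in SCI Veh and 5.92 ± 9.7 CPM in Uninjured libraries, with its highest values in the same libraries 457 and 377. The part of muscle tissue in these levels was not tested. Cacng6, a further gamma subunit of muscle, had 0 to 6 counts in each library.

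**Figure D4:**
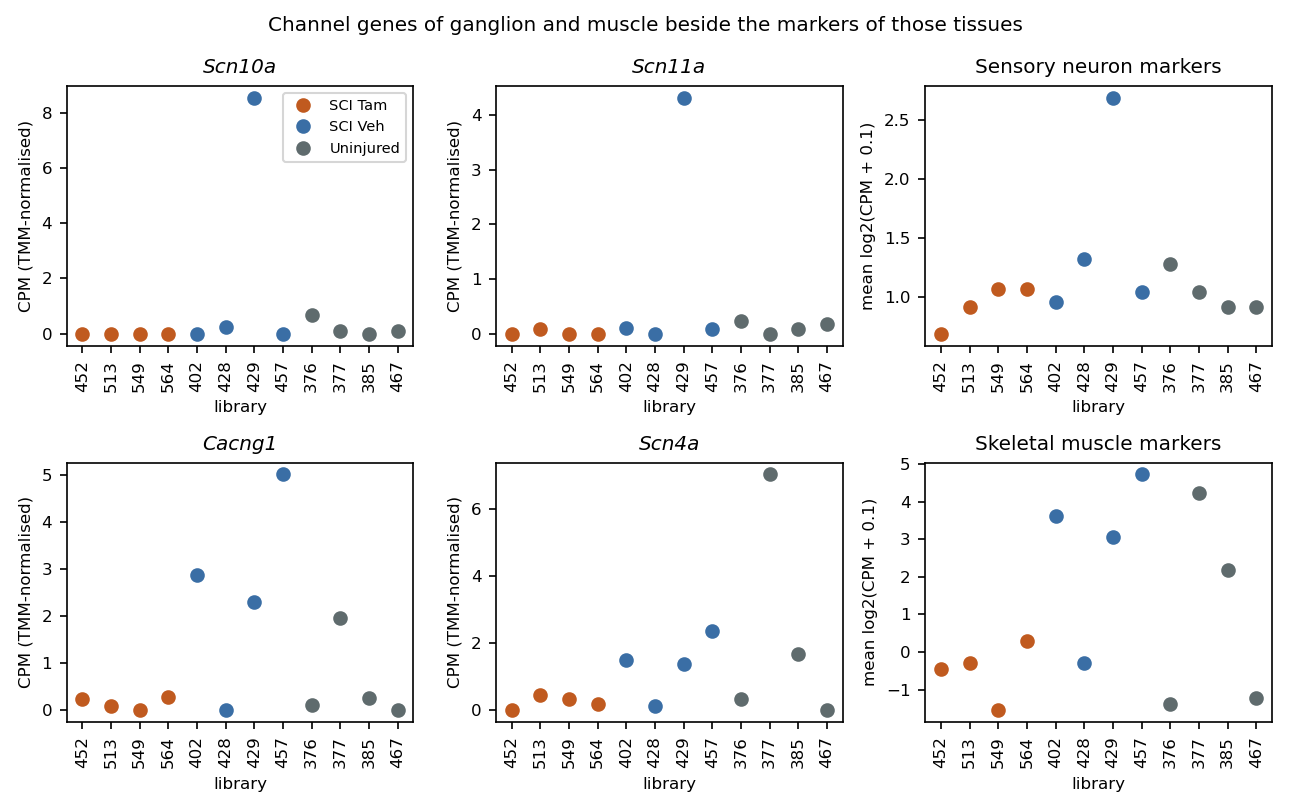
Upper panels give CPM of the nociceptor channel genes Scn10a and Scn11a and the mean log2(CPM + 0.1) of sensory neuron markers in each library; lower panels give Cacng1, Scn4a and the skeletal muscle markers. Libraries run from SCI Tam through SCI Veh to Uninjured. Library 429 alone stands high in the upper panels, and the high points of the lower panels lie among libraries 402, 429, 457, 377 and 385.

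Tamoxifen-treated lesions were set against vehicle-treated lesions to ask whether channel genes differed with the reduced pericyte scar. Of 35 members, 3 were lower (8.57%), 0 were higher and 32 had no call. This stood against 8.33% of all tested genes lower and 7.79% higher, 16.1% in all. The share of members called lower was thus near that of all genes. At an unadjusted edgeR p under 0.05 there were 7 lower and 2 higher members, against 17.2% of all tested genes lower and 16.2% higher. The DESeq2 Wald test called 4 members lower and 0 higher, against 10.3% of all genes lower and 9.04% higher. The median log2 fold change of the 35 members was -0.04, beside 0.0011 for all genes. Scn7a was the only one whose SCI Tam and SCI Veh libraries did not overlap, against 8.77% of all genes with every SCI Tam library below and 7.68% with every one above. Cacna2d4 was lower by 0.90 on the log2 scale (SE 0.25, edgeR adjusted p = 0.0286), and library 452 overlapped the SCI Veh values. Cacng1 was lower by 4.08 (SE 1.19, edgeR adjusted p = 0.0367), on 6 counts in all SCI Tam libraries together against 116 in the SCI Veh libraries. Each of the Cacna2d4 and Cacng1 calls was lost without SCI Veh library 429 or 457, or without SCI Tam library 513, 549 or 564; their adjusted p then ran from 0.0539 to 0.0873 for Cacna2d4 and from 0.0618 to 0.102 for Cacng1. Without SCI Veh library 402, Cacng1 also lost its call (adjusted p = 0.0666).

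None of the neuronal pore subunits passed between the lesion groups. Scn1a had a log2 fold change of 0.14 in SCI Tam against SCI Veh (SE 0.10, edgeR adjusted p = 0.359) and Scn8a of -0.14 (SE 0.11, adjusted p = 0.396). The sodium channel beta subunits Scn2b, Scn3b and Scn4b had positive values, 0.33, 0.22 and 0.21, and none passed. Scn4b passed without SCI Veh library 428 (log2 fold change 0.27, adjusted p = 0.0453). All 8 tested pore subunits of neuronal calcium channels had negative values, from -0.12 for Cacna1b to -0.37 for Cacna1g, and none passed. Cacnb3 came closest among the uncalled members, at -0.34 (SE 0.11, adjusted p = 0.0536); it passed with library totals alone (0.045) and with the DESeq2 Wald test (0.0313), and did not with limma on log2 FPKM plus 1 (0.125). A missed threshold does not show that levels were alike.

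SCI Tam library 452 stood apart from 513 and 549 in most members. It held the highest SCI Tam value for 22 of the 35 tested members and library 549 the lowest for 20. The median of the 35 members, as log2 difference from their Uninjured means, was -0.49 in library 452, -0.91 in 513, -0.92 in 549 and -0.56 in 564. In the SCI Veh libraries this median was -0.71 in 402, -0.65 in 428, -0.81 in 429 and -0.55 in 457. The mean log2 CPM of the neuron markers was 7.69, 7.41, 7.28 and 7.77 in the SCI Tam libraries and 7.39, 7.44, 7.32 and 7.44 in the SCI Veh libraries, in the same order. Both measures were lower in libraries 513 and 549 than in 452 and 564, and the neuron markers of 513 lay within the SCI Veh range. Without library 452, 9 members were lower in SCI Tam than in SCI Veh lesions: Scn8a under both identifiers, Scn7a, Cacna1a, Cacna1c, Cacna1d, Cacna1g, Cacna2d4 and Cacng1. None was higher. Among all genes, 4631 passed without library 452, against 2655 with every library; 13.5% of those tested were lower and 13.9% higher. Cacna1g was then at -0.50 (edgeR adjusted p = 0.0259), Cacna1c at -0.43 (adjusted p = 0.0227) and Scn8a at -0.27 (adjusted p = 0.0293). Library 452 is the only SCI Tam library with a low sample name number. Any difference between it and the other 3 as a set cannot be told apart from the sample name series. In the 2 measures above, library 564 stood near 452. With a term for that series, 0 members passed in SCI Tam against SCI Veh. Among all genes, 57 then passed, against 2655 without the term. A term for sex left Scn7a alone among the members (log2 fold change -1.86, edgeR adjusted p = 0.0209). All SCI Tam mice were female by their transcripts, so that fit takes the sex difference from SCI Veh and Uninjured mice. There, library 429 was the only female SCI Veh library and 467 the only male Uninjured library. Sex and treatment thus go largely together in SCI Tam against SCI Veh, and the term cannot separate them well.

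Against intact cord, most channel genes were lower in the tamoxifen-treated lesions too. In SCI Tam against Uninjured, 31 of 35 members were lower and 0 higher, against 22.7% of all tested genes lower and 26.3% higher, 48.9% in all. For 29 members every SCI Tam library lay below every Uninjured library, against 19.7% of all genes. The median log2 fold change was -0.70, beside 0.01 for all genes. This comparison shares the Uninjured libraries with that of the vehicle-treated lesions, so the 2 counts are not independent. Scn7a, Cacna2d4, Cacng1 and Cacng4 had no call. Members that passed here but not in SCI Veh against Uninjured included Cacna1d at -0.43 (edgeR adjusted p = 0.00202), Cacnb3 at -0.42 (adjusted p = 0.00668) and Scn4a at -3.08 (adjusted p = 0.0467). None of these 3 differed between the 2 lesion groups at an adjusted p under 0.05. The Scn4a call was lost without Uninjured library 377 (log2 fold change -1.36, adjusted p = 0.348) or 385 (adjusted p = 0.0649), without SCI Veh library 402, 429 or 457 (0.0525 to 0.0596) and without any 1 of the 4 SCI Tam libraries (0.0729 to 0.0944). It was also lost with limma-voom (0.447) and with limma on log2 FPKM plus 1 (0.209).

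The steepest falls in SCI Tam lesions, apart from Scn4a, were those of the second Scn8a identifier at -1.63, Cacna1e at -1.38, Cacna1i at -1.25 and Cacna1c at -1.14. The shallowest called fall was that of Cacng7 at -0.27 (SE 0.08, edgeR adjusted p = 0.0167). Differences between genes were not tested. With the sample name series in the fit, the SCI Tam effect rests on library 452, and 7 of the 31 members still passed: Scn1a, Scn8a under both identifiers, Cacna1a, Cacna1c, Cacna2d3 and Cacnb1. The 29 described here kept a negative sign in that fit. Without the libraries high in muscle transcripts 23 of the 28 described here that could be fitted passed.

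Most partners of the channels were lower in the lesions as well. Of 13 tested genes for proteins that anchor or modulate sodium channels, 9 fell and 2 rose in SCI Veh against Uninjured, with a median of -0.56. Among all tested genes, 24.1% fell and 26.7% rose. Fgf14, an intracellular modulator of sodium channels, fell by 0.87 on the log2 scale (edgeR adjusted p = 7.65e-05), and Cntnap1, the paranodal adhesion protein, by 0.78 (adjusted p = 0.000119). Fgf12, a modulator of the same family, was the 1 of these 13 called higher in SCI Tam than in SCI Veh lesions, by 0.41 (edgeR adjusted p = 0.0245). This is 7.69% of the 13, beside 7.79% of all tested genes, and 0 were lower, beside 8.33%. The 2 that rose in SCI Veh against Uninjured were the cell adhesion genes Nfasc (0.38, adjusted p = 0.0278) and Nrcam (0.27, adjusted p = 0.0359). In SCI Tam against Uninjured, 10 partners fell and 1 rose, against 22.7% of all tested genes lower and 26.3% higher.

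Calcium channel partners included active zone proteins, which hold channels at release sites, and small G proteins that restrain them. Of 20 tested, 15 fell and 3 rose in SCI Veh against Uninjured, with a median of -0.76. Among all tested genes, 24.1% fell and 26.7% rose. Erc2, an active zone scaffold, fell by 0.97 on the log2 scale (edgeR adjusted p = 1.97e-05) and Rims2, which tethers vesicles to channels, by 0.86 (adjusted p = 0.000116). The 3 that rose were all G proteins of 1 family that lower calcium current: Gem by 0.88 (adjusted p = 0.00051), Rem1 by 1.33 (adjusted p = 0.0152) and Rrad by 1.75 (adjusted p = 0.0101). Rem2, the family member of neurons, fell by 1.11. Gem averaged 5.43 ± 1.02 CPM in SCI Tam, 8.9 ± 0.97 CPM in SCI Veh and 4.87 ± 0.695 CPM in Uninjured libraries and was lower in SCI Tam than in SCI Veh lesions (-0.72, edgeR adjusted p = 0.0107). In that comparison 1 more calcium channel partner was lower, Stac3 (-1.78, edgeR adjusted p = 0.0404). Of the 20 partners, 10% were lower and 5% higher, beside 8.33% and 7.79% of all tested genes. Skeletal muscle markers stood lower there too, with 4 of 11 called lower, 0 called higher and a median of -4.36. SCI Veh libraries 402, 429 and 457 were those high in muscle markers. The part of muscle tissue in the Stac3 value was not tested. Of 5 genes listed for the sodium leak channel complex, which sets the resting potential of neurons, 4 were found in the count table. All 4 fell in SCI Veh against Uninjured (median -0.83), against 24.1% of all tested genes. The smallest adjusted p there was that of Fam155a at -0.85 (edgeR adjusted p = 3.70e-06). The same 4 fell in SCI Tam against Uninjured (median -0.76), against 22.7% of all tested genes. Nalcn, its pore, averaged 107 ± 17.5 CPM in SCI Tam, 93.3 ± 8.73 CPM in SCI Veh and 165 ± 5.17 CPM in Uninjured libraries.

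A scaling added after the data were seen set each library to the mean log2 CPM of its neuron markers, so that a change is read relative to the neuronal share of the RNA. The median log2 fold change of all genes moved to 0.77 in SCI Veh against Uninjured on this scale, and that of the members to 0.10, so directions are relative to the neuron markers. Of the 27 falls seen with TMM scaling, 4 still passed as lower, and those of Cacnb1, Cacnb4 and Cacng7, among others, turned into higher calls. In SCI Veh against Uninjured, 4 members were lower (against 1.19% of all genes), 10 were higher (against 79.8%), and 21 had no call. The 4 lower were the second Scn8a identifier at -0.62 (edgeR adjusted p = 0.0106), Cacna1e at -0.49 (adjusted p = 0.0477), Cacna1i at -0.37 (adjusted p = 0.028) and Scn1a at -0.20 (adjusted p = 0.0474). With the median in place of the mean of the markers, 1 member was lower. Scn7a at 1.79 and Cacna2d4 at 1.54 were again higher. Scn8a was at -0.09 (adjusted p = 0.479), Scn4b at -0.03 (adjusted p = 0.772) and Cacna1a at 0.10 (adjusted p = 0.431). Cacnb3, which had no call without this scaling, was higher than the neuron markers by 0.66 (SE 0.09, edgeR adjusted p = 2.63e-05), and likewise Cacna1d by 0.57 and Cacng4 by 0.57.

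**Figure D5:**
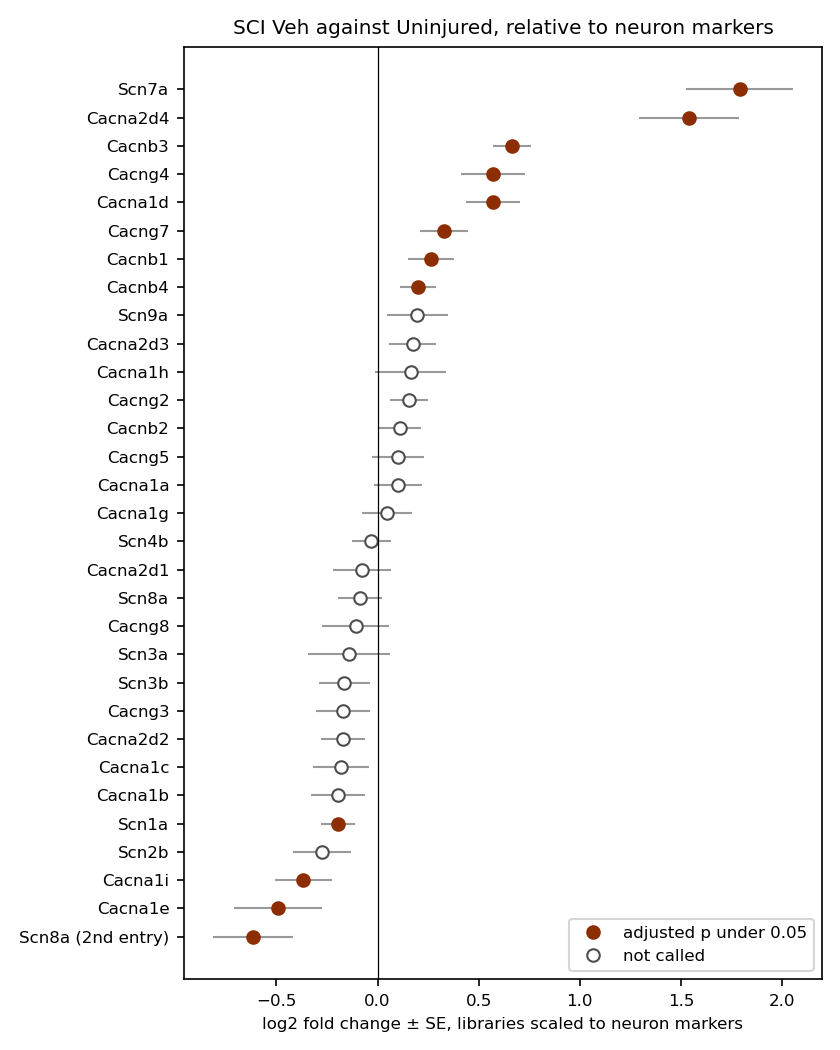
Points are log2 fold changes in SCI Veh against Uninjured after scaling to neuron markers, with SE bars, in falling order; filled points have an edgeR adjusted p under 0.05. Most members lie close to 0, Scn7a and Cacna2d4 stand at the top and the second Scn8a identifier, Cacna1e and Cacna1i at the bottom. Scn4a and Cacng1 are left out.

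On this scale the tamoxifen-treated lesions gave 9 lower members against Uninjured (1.55% of all genes lower): Scn1a, Scn8a under both identifiers, Cacna1b, Cacna1c, Cacna1e, Cacna1g, Cacna1i and Cacna2d2. These are pore subunits except for Cacna2d2. Cacna1e was at -0.81 (SE 0.22, edgeR adjusted p = 0.00388), Cacna1i at -0.67 (adjusted p = 0.000829) and Scn8a at -0.37 (adjusted p = 0.00781). The higher members included Cacng4 and Cacng7 (72.9% of all genes higher). In SCI Tam against SCI Veh on the same scale, 6 members were lower (6.76% of all genes) and 0 higher (1.54%). The lower ones included Scn7a, Cacna1g, Cacna2d4, Cacnb3 and Cacng1. Cacnb3 was at -0.48 (adjusted p = 0.00789) and Cacna1g at -0.52 (adjusted p = 0.0244). Neuron markers are themselves transcripts that may change within neurons, so this scale gives a ratio and no level per neuron.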

How the data were processed

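RNA from whole cord segments or lesions of 12 mice was sequenced, 1 library per mouse. The authors deposited a table of raw read counts per Ensembl gene and a table of FPKM values. TopHat, Picard, Cufflinks and HTSeq and the mouse build mm9 are named per the submitters' processing notes; for their roles, versions and strand setting, nothing is given in the sources used here. The ratio of counts to FPKM was compared between the 3 SCI Tam libraries with high sample name numbers and all other libraries. In 498 of 15268 genes the mean ratio differed by more than 0.5 on the log2 scale and the values of these sets did not overlap. Both conditions were met by 0 of 33 members.

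Groups came from the sample titles. In R 4.3.3, genes were kept by filterByExpr of edgeR 4.0.16 (minimum count 10, minimum total 15), counts were TMM-normalised, and edgeR's quasi-likelihood test was fitted to 3 group means over all 12 libraries, with 9 residual degrees of freedom. P-values were adjusted by the Benjamini-Hochberg method over all 16473 genes tested, for each of the 3 comparisons. The SE of a log2 fold change was its size divided by the square root of the quasi-likelihood F. CPM values are TMM-scaled and carry no length correction. DESeq2 1.42.0, limma 3.58.1, other scalings, filters and covariates served as alternatives. The test was checked on simulated counts with known changes, drawn independently for each library from the fitted spread. These held no differences in sex, muscle transcripts or sample name series, so the check cannot speak to such differences. The p-values set a difference between groups against the spread between single mice within groups, estimated over all 3 groups together.

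Members given with every library's value were the 16 with the smallest adjusted p in SCI Veh against Uninjured and those called in SCI Tam against SCI Veh, apart from genes not reported here; the others are given by means. Members, gene lists and tests were chosen with earlier results of these data known. The scaling to neuron markers was added after the data were seen. At most 9.57% of the words of 31 bases in a member's transcripts also occur in other genes (Scn3a). Exons of 9 members are overlapped on the opposite strand (Cacna1a, Cacna1d, Cacna1h, Cacna2d2, Cacnb1, Cacnb2, Cacnb4, Cacng2 and Scn9a). Both checks covered the 38 members with reference transcripts. The second Scn8a identifier has none there, so its shared words and opposite-strand overlap were not examined. Coordinates and gene order come from GRCm38 and were not combined with the mm9 values. Tubb3 and Map2 were listed as neuron markers and not found in the count table under these names.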

Additional observations from a re-analysis of the deposited data

Results flagged for a closer look

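Within groups of 4 libraries, 9 of 105 combinations of member and group had 1 library far from the other 3, by a criterion that chance meets in about 1 in 20. In SCI Veh library 429, Scn10a stood at 8.54 CPM against 0 to 0.247 CPM in the others of its group, and Scn11a at 4.32 CPM against 0 to 0.107 CPM. SCI Veh library 402 had 6.52 CPM of the second Scn8a identifier, where the others had 4.96 to 5.18 CPM. Cacna1h was at 26.3 CPM in SCI Veh library 428 and at 28.4 to 28.7 CPM in the rest of that group. In SCI Tam library 452, Cacna2d4 was at 4.79 CPM against 2.48 to 2.6 CPM in the other 3. SCI Tam library 549 had 52.5 CPM of Cacng4, against 40.6 to 42.3 CPM. In SCI Tam library 564, Cacng7 was at 165 CPM against 147 to 149 CPM, and Cacng8 at 7.16 CPM against 5.51 to 5.68 CPM. Cacng1 was at 1.97 CPM in Uninjured library 377 and at 0 to 0.264 CPM in the other Uninjured libraries.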

How the results depend on the processing

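The falls called in both lesion groups against Uninjured kept their direction in every member described here under the other scalings, filters, tests, covariates and left-out libraries tried, and many changed sign under the scaling to neuron markers. Depth limited Scn10a, Scn11a, Cacna1f, Cacng6 and the muscle genes, which rest on few counts. Leaving out 1 library at a time gave 1 to 3 higher and 27 to 28 lower members in SCI Veh against Uninjured, 0 to 1 higher and 1 to 9 lower in SCI Tam against SCI Veh, and 0 higher and 29 to 31 lower in SCI Tam against Uninjured. All genes called were then 7267 to 8987, 1236 to 4631 and 6717 to 8895 in these comparisons. Scaled to neuron markers, the same step gave 6 to 11 higher and 1 to 5 lower members in SCI Veh against Uninjured, 0 higher and 2 to 9 lower in SCI Tam against SCI Veh, and 2 to 6 higher and 7 to 12 lower in SCI Tam against Uninjured.

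The count of members lower in SCI Tam against SCI Veh was 1 with limma on log2 FPKM plus 1 or plus 0.1 (1519 and 1439 genes in all), 1 with the 8 lesion libraries alone (1513 genes), 1 with a term for sex (989 genes), 0 with a term for the sample name series (57 genes) and 0 without the libraries high in muscle transcripts (0 genes). Without those libraries, SCI Veh against Uninjured gave 0 higher and 0 lower members and 296 genes, and SCI Tam against Uninjured 3540 genes; fewer libraries entered these fits. The series term gave 7 lower members and 1951 genes in SCI Tam against Uninjured. With scaling to neuron markers, the log2 fold changes of 14 members described here in SCI Veh against Uninjured changed sign to Scn9a 0.20, Cacna1d 0.57, Cacna1a 0.10, Cacna1g 0.047, Cacna1h 0.16, Cacna2d3 0.17, Cacnb1 0.27, Cacnb2 0.11, Cacnb3 0.66, Cacnb4 0.20, Cacng2 0.16, Cacng4 0.57, Cacng5 0.10 and Cacng7 0.33. In SCI Tam against Uninjured, 9 such members changed sign, to Scn9a 0.0088, Scn4b 0.048, Cacna1d 0.18, Cacna2d3 0.11, Cacnb2 0.16, Cacnb3 0.18, Cacnb4 0.15, Cacng5 0.15 and Cacng7 0.35. Scaling to the median of the neuron markers gave 1 lower member in SCI Veh against Uninjured, and to their mean 4. Apart from the values named, the cause of these moves was not tested. No paired analysis was possible because mouse numbers are not shared between the groups.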
